A study of Homo sapiens with 8 samples.

Results

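Polycomb group proteins form the 2 chromatin complexes that keep developmental genes silent, and 10 genes for their subunits were followed here. *EZH1*, *EZH2*, *EED*, *SUZ12* and *JARID2* encode parts of PRC2, and *BMI1*, *RNF2*, *CBX2*, *CBX7* and *CBX8* encode parts of PRC1. They were found by name, as every non-control probe whose gene name was one of these 10 symbols, which gave 14 probes among the 50599 distinct non-control probes of the array. All 14 were bright enough on both arrays of at least 1 condition to be tested, so each of the 10 genes was measured, out of 36337 gene names on the array. *BMI1*, *RNF2*, *CBX2* and *CBX7* had 2 probes each, *SUZ12* had 1 probe printed in 10 spots, and the others had 1 probe in 1 spot. Counts of genes use the brightest tested probe of each gene, and the second probes are given beside it.

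Expression was measured on 8 one-color arrays from 4 clones of HCT116, an established line of human colorectal cancer cells. The control clones CONT1 and CONT2 carry the negative control miRNA plasmid, and TET1-KD1 and TET1-KD2 carry plasmids for artificial miRNAs against *TET1*, a dioxygenase that oxidizes 5-methylcytosine. Each clone was grown from 1 GFP-positive colony under 0.6 mg/ml G418, a selection that all 4 clones share, and the TET1-KD clones came from different miRNA sequences. The titles give each clone once untreated and once with 5-aza-dC, a DNA methyltransferase inhibitor used at 1 µM for 72 h with fresh drug and medium every 24 h, so each condition had 2 clones. Another label field gives mock for every control array and 5-aza-dC for every TET1-KD array. The titles were followed, and every direction below that involves treatment rests on them. The clones of a condition are the replicates, and the arrays of a clone come from the same clone before and after treatment.

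As background, PRC2 places methyl groups on lysine 27 of histone H3. EZH2, or its paralog EZH1, is the catalytic subunit, which is active only when bound to EED and SUZ12, while JARID2 is an accessory subunit that helps recruit the enzyme and tune its activity. PRC1 attaches ubiquitin to histone H2A through RNF2, also called RING1B, which pairs with a PCGF protein such as BMI1, and the CBX subunits bind methylated lysine 27 through their chromodomain. In colorectal cancer many CpG islands that gain DNA methylation belong to genes that Polycomb marks in stem cells, and *EZH2* is often highly expressed in proliferating tumor cells.

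Sequences are shown first, of probes where a gene was read by more than 1, and of gene starts because 5-aza-dC acts on methylation of CpG. The probes are 60 bases long and their positions are those of the array files, on hg19. The dimmer *BMI1* probe lies at chr10:22617587-22617995, a stretch of 409 bases of genome for 60 bases of probe, so it crosses an intron, and its sequence can be read without a stop codon in 2 of 3 frames. The dimmer *RNF2* probe at chr1:185069031-185069090 has 1 open frame over its 20 codons, whereas the brighter one at chr1:185071124-185071183 has a stop codon in every frame. Both dimmer probes are printed whole, 5′ to 3′ in the sense of the transcript.
BMI1, probe across an intron: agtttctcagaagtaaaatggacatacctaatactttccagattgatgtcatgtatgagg
RNF2, probe with an open frame: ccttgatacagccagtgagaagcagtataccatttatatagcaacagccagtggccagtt
The 2 *CBX7* probes lie on chromosome 22, the brighter at chr22:39527000-39527059 and the other at chr22:39529719-39529778, both on the minus strand. They gave different results, and their first 30 bases are printed so that they can be told apart.
CBX7, brighter probe: tctcagcacaagagcgcttcctttgcacag
CBX7, second probe: aaggggagaagatcccactactctcccacc

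RefSeq start regions on GRCh38.p14, each from 250 bases before to 50 bases after a transcript start, were given for 8 of the 10 genes and made 11 windows. *CBX2* and *CBX8* had no entry. The dinucleotide CG, the site of DNA methylation, occurred 16 to 65 times in these windows with a median of 40, against a median of 14 and an upper quartile of 28 over all 35116 windows. Of the 11 windows, 9 lay above that upper quartile. The second start of *BMI1* held the most, 65, a number that 0.0313% of all windows reach, and *EED* held the fewest, 16, which 47.5% of all windows reach. The 250 bases before the start are printed for *JARID2* and *CBX7*, which have the largest treatment values below, *CBX7* only on its second probe. They are also printed for *EED*, the gene with the fewest CG. Each stretch is in the sense of its gene with CG in capitals.
JARID2, first start, chr6:15245819-15246068, plus strand: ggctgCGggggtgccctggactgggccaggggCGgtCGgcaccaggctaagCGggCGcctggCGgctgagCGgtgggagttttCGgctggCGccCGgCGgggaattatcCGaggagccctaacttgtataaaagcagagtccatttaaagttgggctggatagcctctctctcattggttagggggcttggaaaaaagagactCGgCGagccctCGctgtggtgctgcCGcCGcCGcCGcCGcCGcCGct
JARID2, second start, chr6:15248605-15248854, plus strand: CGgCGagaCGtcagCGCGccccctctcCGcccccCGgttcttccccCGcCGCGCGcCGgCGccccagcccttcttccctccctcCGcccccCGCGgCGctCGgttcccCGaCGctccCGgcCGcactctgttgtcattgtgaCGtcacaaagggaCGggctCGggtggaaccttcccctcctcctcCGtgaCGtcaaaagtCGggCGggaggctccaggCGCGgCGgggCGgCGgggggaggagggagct
CBX7, chr22:39152681-39152930, minus strand: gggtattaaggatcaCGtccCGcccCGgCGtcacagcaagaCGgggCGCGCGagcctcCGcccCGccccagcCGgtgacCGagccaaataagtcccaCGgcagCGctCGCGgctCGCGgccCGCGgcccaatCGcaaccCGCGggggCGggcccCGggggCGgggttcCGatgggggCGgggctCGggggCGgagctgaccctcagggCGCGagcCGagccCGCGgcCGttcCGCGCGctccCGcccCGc
EED, chr11:86244503-86244752, plus strand: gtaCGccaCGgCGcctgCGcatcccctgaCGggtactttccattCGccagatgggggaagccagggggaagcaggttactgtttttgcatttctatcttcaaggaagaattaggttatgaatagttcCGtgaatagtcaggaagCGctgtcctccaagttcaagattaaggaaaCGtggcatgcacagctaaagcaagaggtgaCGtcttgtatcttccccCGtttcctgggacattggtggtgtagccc
The printed stretch held 41 CG for *CBX7*, 22 and 34 for the 2 starts of *JARID2*, and 11 for *EED*. These are letters of the reference, and methylation of these regions was not measured in these arrays.

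The arrays differed in ways that touch the treatment response of the control clones and its comparison with that of the TET1-KD clones. Arrays were assigned to a first or a second slide by scan date alone. The second, scanned 230 days after the other 6 arrays, held both arrays of treated control clones. The 5-aza-dC response of the control clones therefore cannot be told apart from a difference between slides or scans. The comparison of untreated clones and the response of the TET1-KD clones lie within the first slide. Of the 10 spike-in transcripts, the largest gap was 1.00 lower on the second slide (log2 of the intensity before scaling), and after scaling the gaps ran from -0.57 to 0.41. Probes with more GC had lower control responses: the median response of CONT1 went from 0.16 in the bin of lowest probe GC content to -0.52 in the bin of highest, and that of CONT2 from 0.15 to -0.55. In TET1-KD1 and TET1-KD2 the same medians lay between -0.12 and 0.00. The labelled cell type was checked on 10 colorectal epithelial markers, of which 7, among them *EPCAM*, *CDH1*, *KRT8*, *KRT18* and *CDX2*, were above background on all 8 arrays, while *CDH17* was above background on 0 and *VIL1* on 2. The summed signal of 5 leukocyte markers was 457.5 to 856.6 on untreated arrays and 1515 to 2536 on treated arrays, that of 6 fibroblast markers 336.7 to 454.7 and 609.6 to 859.3, and that of 5 endothelial markers 105.6 to 130.1 and 210.1 to 311.4. Of the markers that define those cells, *COL1A2*, *COL3A1*, *LUM*, *PDGFRA* and *KDR* were above background on 0 arrays and *PTPRC* on 8. Their part in the treatment results below was not tested.

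*TET1*, the targeted gene, was measured by 3 probes. Without drug, its brightest probe gave log2 signals of 9.70 and 9.75 for CONT1 and CONT2, then 8.65 and 9.41 for TET1-KD1 and TET1-KD2. After 5-aza-dC these were 9.64, 9.64, 8.99 and 9.48 in that order. Both TET1-KD clones were below both control clones under either condition, and TET1-KD1 was the lower of them. The untreated difference was -0.69 (SE 0.29) and did not pass the limma test (adjusted p = 0.61). The second probe gave a difference of -0.98 (adjusted p = 0.58, limma). The third was above background only in the untreated control clones, so that it gives a bound, at least 1.2-fold lower in the untreated TET1-KD clones (adjusted p = 0.37, limma).

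Between untreated TET1-KD and control clones, none of the 10 Polycomb genes passed the limma test (adjusted p below 0.05), and 0 reached an unadjusted p below 0.05. Over all 19688 gene names tested, 0.0203% passed, and an unadjusted p below 0.05 was reached by 2253 of all 27287 tested probes. The arrays read bulk RNA, in which fewer cells expressing a gene and less RNA per cell cannot be told apart. The core PRC2 genes *EED*, *EZH2* and *SUZ12* and the PRC1 gene *BMI1* were higher in both TET1-KD clones than in both control clones, and *CBX7* was lower in both. Groups that do not overlap were thus seen for 5 of 10 genes, against 45.5% of all gene names. The members' median difference was -0.03, beside 0.01 over all gene names.

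*EZH2* gave 11.60 and 11.83 in CONT1 and CONT2, and 12.27 and 12.04 in TET1-KD1 and TET1-KD2. The difference was 0.43 on the log2 scale (SE 0.18, 95% interval -0.01 to 0.88, adjusted p = 0.61, limma). *EED*, the subunit that binds methylated lysine 27 and stimulates the enzyme, gave 12.62, 12.73, 13.17 and 12.93 in the same order of clones, a difference of 0.37 (SE 0.17). *SUZ12*, the scaffold of the complex, gave 11.57, 11.52, 11.99 and 11.67, a difference of 0.29 (SE 0.19). In all of these TET1-KD1 was the highest clone and TET1-KD2 the next. *EZH1* had the other order, with 9.08 and 9.03 in the control clones, 8.41 in TET1-KD1 and 9.12 in TET1-KD2. Here TET1-KD1 alone lay below the rest, and the groups overlapped. *JARID2* gave 10.14 and 10.68 in the control clones and 9.94 and 10.41 in the TET1-KD clones, groups that overlapped, with a difference of -0.23 (SE 0.45).

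*BMI1* was 9.94 and 10.38 in the control clones, 11.41 in TET1-KD1 and 10.56 in TET1-KD2. TET1-KD1 lay 0.85 above the next clone, a larger step than the 0.44 between the control clones, and the difference of 0.82 (SE 0.42) had a 95% interval from -0.20 to 1.85. The probe of *BMI1* that crosses an intron, printed above, gave the same order with 8.34, 8.58, 9.89 and 8.76, and a difference of 0.86 (SE 0.44). *CBX7* was 11.30 and 11.10 in the control clones, 9.99 in TET1-KD1 and 11.01 in TET1-KD2, a difference of -0.70 (SE 0.32, adjusted p = 0.62, limma). Its second probe differed less, with 7.91, 7.79, 7.60 and 7.74 and a difference of -0.18 (SE 0.17). *RNF2*, *CBX2* and *CBX8* had differences of 0.04, -0.11 and -0.10 on their brightest probes, with SEs of 0.16, 0.21 and 0.25, and overlapping groups.

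TET1-KD1 was the highest or the lowest of the 4 untreated clones for 8 of the 10 genes, and for 70.6% of all gene names. The clone that stood apart most often for these genes was thus also the one that did so over the whole array. The intervals of 7 genes lay within a 2-fold change in either direction, and those of the other 3, *BMI1*, *CBX7* and *JARID2*, reached beyond it.

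**Figure D1:**
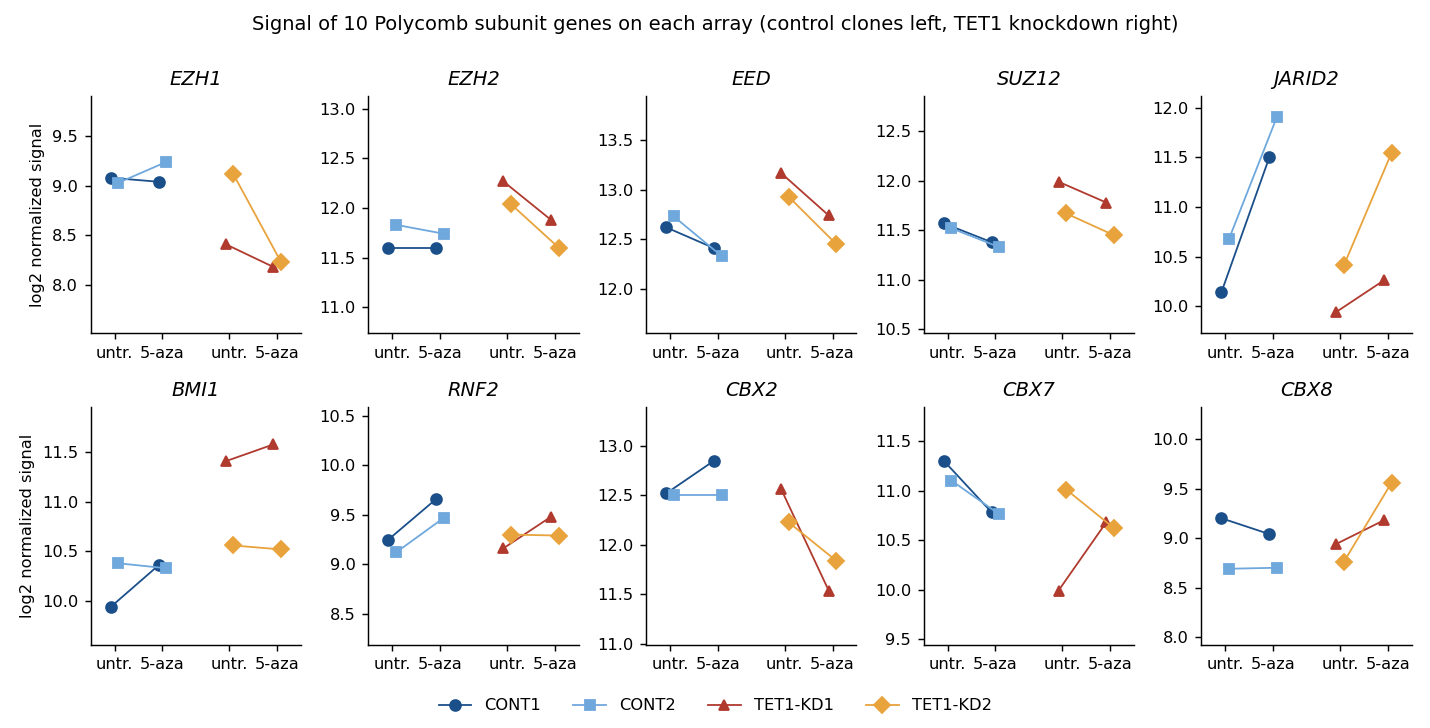
Normalized log2 signal (y axis, the same span of 2.4 in every panel) of the brightest probe of each gene on every array, with untreated (untr.) and 5-aza-dC arrays of a clone joined by a line. CONT1 and CONT2 are at the left of each panel and TET1-KD1 and TET1-KD2 at the right. *JARID2* is higher after treatment in all 4 clones, and *BMI1* is highest in TET1-KD1 with or without drug.

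After 5-aza-dC, none of the 10 genes passed the limma test in the control clones, where 1 reached an unadjusted p below 0.05 and 41.8% of all gene names passed. None passed in the TET1-KD clones, where 2 reached an unadjusted p below 0.05 and 12.5% of all gene names passed. An unadjusted p below 0.05 was reached by 13958 of all 27287 tested probes in the control clones and by 7603 in the TET1-KD clones. The members' median response was 0.02 in the control clones and -0.07 in the TET1-KD clones, beside -0.05 and -0.06 over all gene names. By the methods' t-test on the same values, 3 members in the control clones and 0 in the TET1-KD clones had a p below 0.05, and 0 and 0 after Benjamini-Hochberg adjustment. Of all 27287 tested probes, 11910 and 4500 had a p below 0.05 by that t-test, and 4163 and 0 after adjustment. The test of single probes gave 1 call among 14, the second probe of *CBX7* in the control clones. Treated and untreated arrays did not overlap for 5 of 10 genes in the control clones and for 5 of 10 in the TET1-KD clones, beside 79.2% and 55.8% of all gene names.

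*JARID2* had the largest response of the 10 genes. With the drug, CONT1 went from 10.14 to 11.50, CONT2 from 10.68 to 11.91, TET1-KD1 from 9.94 to 10.26, and TET1-KD2 from 10.41 to 11.55. Every clone was higher with the drug, and TET1-KD1 showed the smallest step. The response of the control clones was 1.30 (SE 0.45, 2.46-fold, 95% interval 0.20 to 2.39) and narrowly missed the threshold (adjusted p = 0.061, limma). With the clone as a block it was called (adjusted p = 0.016, limma), as were 13746 of all 27287 tested probes. Over the fits that left out 1 array, the control response ran from 1.029 to 1.565. With a curve through the spike-ins the response was 0.86 (adjusted p = 0.17, limma). In the TET1-KD clones the response was 0.73 (SE 0.45, adjusted p = 0.35, limma), and the difference between the kinds of clone was -0.57 with a 95% interval from -2.11 to 0.98. With 1 array left out, the TET1-KD response ran from 0.085 to 1.37.

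The core PRC2 genes *EED*, *EZH2* and *SUZ12* were lower after treatment in most clones. For *EED*, CONT1 went from 12.62 to 12.41, CONT2 from 12.73 to 12.33, TET1-KD1 from 13.17 to 12.74, and TET1-KD2 from 12.93 to 12.45. All 4 clones were lower, with responses of -0.31 in the control clones (SE 0.17, adjusted p = 0.19, limma) and -0.46 in the TET1-KD clones (SE 0.17, adjusted p = 0.15, limma). *SUZ12* was lower in all 4 clones too, by steps of nearly one size: it was 11.38, 11.33, 11.78 and 11.45 after treatment in CONT1, CONT2, TET1-KD1 and TET1-KD2, with mean responses of -0.19 and -0.21 (SE 0.19 each). *EZH2* was 11.60, 11.74, 11.88 and 11.60 after treatment, a mean response of -0.05 in the control clones and -0.42 in the TET1-KD clones (SE 0.18 each, adjusted p = 0.85 and 0.21, limma). The difference of the *EZH2* responses was -0.37 (95% interval -0.995 to 0.263) and did not pass. With a curve through the spike-ins, *EED*, *EZH2* and *SUZ12* were called lower in the control clones, at -0.85, -0.51 and -0.62 (adjusted p = 0.0074, 0.050 and 0.029, limma, all below 0.05). In that setting 13062 of all 27287 tested probes were called, 9072 of them lower, and the median response of all probes was -0.34.

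*EZH1*, the catalytic paralog found more in resting cells, had treated values of 9.04 and 9.24 in control clones and of 8.18 and 8.23 in TET1-KD clones. Treated TET1-KD clones lay below all other arrays. Its response was 0.09 in the control clones (SE 0.25) and -0.56 in the TET1-KD clones (SE 0.25, adjusted p = 0.20, limma). Without the untreated TET1-KD1 array, which was already low, the latter was -0.92. Over all fits that left out 1 array, the TET1-KD response of *EZH1* ran from -0.92 to -0.21.

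**Figure D2:**
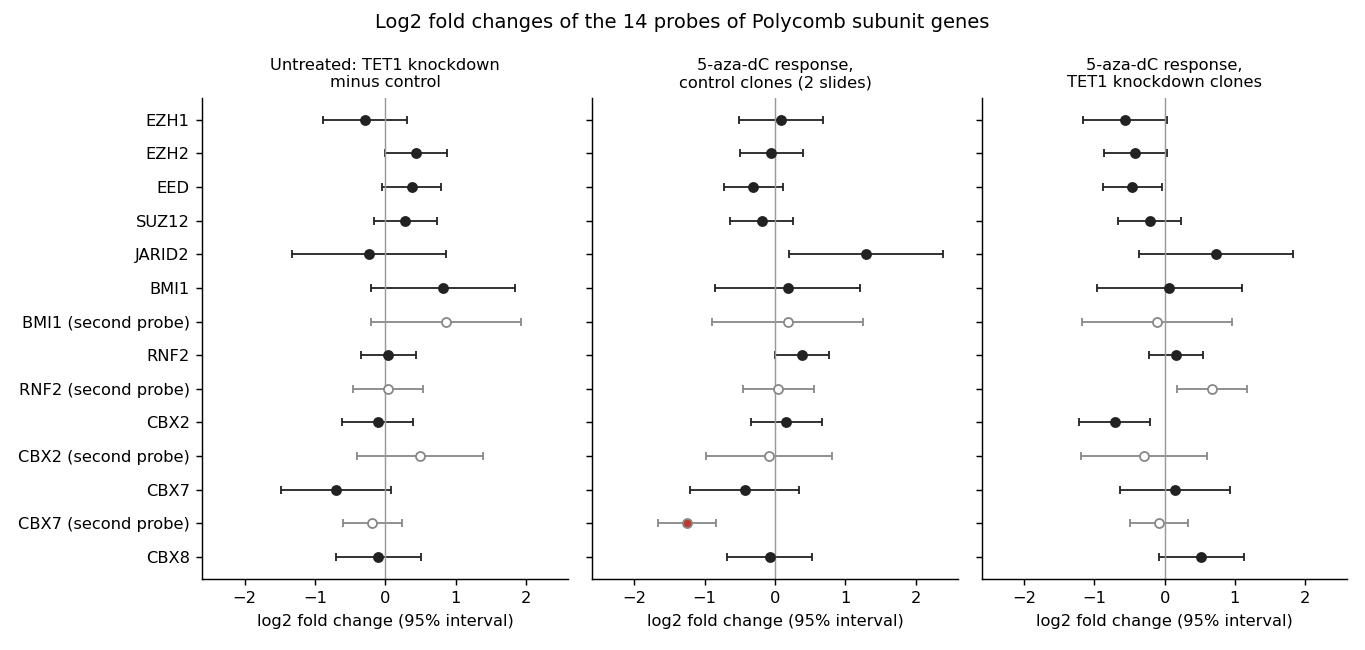
Log2 fold changes (x axis) with 95% intervals from the limma fit over all 8 arrays, for the brightest probe (black) and the second probe (gray, open) of each gene, in the untreated comparison and in the 5-aza-dC response of each kind of clone. The red point marks the 1 call, the second *CBX7* probe in the control clones at -1.25. The intervals of *JARID2* and *BMI1* are the widest among the brightest probes.

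Among the PRC1 genes, *CBX2*, a chromodomain subunit, differed most in the TET1-KD clones. Untreated and treated values were 12.52 and 12.85 for CONT1, 12.50 and 12.50 for CONT2, 12.57 and 11.54 for TET1-KD1, and 12.23 and 11.84 for TET1-KD2. Both treated TET1-KD arrays were below every other array. The response was -0.71 (SE 0.21, 0.61-fold, adjusted p = 0.082, limma) there and 0.16 (SE 0.21) in the control clones, and the difference of -0.87 (SE 0.29) was not called (adjusted p = 0.14, limma). The second *CBX2* probe was above background on 5 of 8 arrays, with responses of -0.08 and -0.29 (SE 0.37 each).

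*CBX8* was 9.20, 8.69, 8.94 and 8.76 untreated and 9.04, 8.70, 9.18 and 9.56 treated in CONT1, CONT2, TET1-KD1 and TET1-KD2. Both treated TET1-KD arrays exceeded their untreated ones, with a response of 0.52 (SE 0.25, adjusted p = 0.24, limma), while the control response was -0.08 (SE 0.25). *BMI1* was 10.36, 10.33, 11.58 and 10.52 after treatment, with TET1-KD1 the highest and TET1-KD2 the next, as without drug. Its responses were 0.18 and 0.07 (SE 0.42 each), so the clones differed more than the treatments.

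*RNF2* read differently on its 2 probes. The brighter probe, with a stop codon in every frame, was 9.25, 9.12, 9.16 and 9.30 untreated and 9.66, 9.47, 9.48 and 9.29 treated. Both control clones were higher with the drug, by 0.38 (SE 0.16, adjusted p = 0.10, limma), and the TET1-KD response was 0.16 (SE 0.16). The probe with an open frame, printed above, was 8.57, 8.77, 8.63 and 8.79 untreated and 8.73, 8.72, 9.13 and 9.64 treated. On it the TET1-KD clones had the larger response, 0.67 (SE 0.21, adjusted p = 0.093, limma), and the control clones 0.05 (SE 0.21). The order of the 2 kinds of clone therefore turned with the probe, and neither difference in response was called (adjusted p = 0.59 and 0.25, limma).

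*CBX7* also read differently on its 2 probes. The second probe gave 7.91 and 7.79 in CONT1 and CONT2 untreated and 6.77 and 6.43 treated, against 7.60 and 7.74 untreated and 7.57 and 7.60 treated in TET1-KD1 and TET1-KD2. The treated control arrays lay below all 6 others. Its control response fell by 1.25 on the log2 scale (SE 0.17, 0.42-fold, adjusted p = 0.0026, limma), a share of 41.8% of all tested probes being called in that comparison. The response of the TET1-KD clones was -0.08 (SE 0.17), and the difference of 1.17 (SE 0.24) was called (adjusted p = 0.048, limma), as were 5.58% of all tested probes. That difference was not called without CONT1 untreated, CONT2 untreated, TET1-KD1 untreated, TET1-KD2 untreated, CONT2 treated, TET1-KD1 treated or TET1-KD2 treated (differences of 1.00 to 1.24, adjusted p from 0.080 to 0.18, limma), nor with the clone as a block (adjusted p = 0.052, limma).

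The brighter *CBX7* probe, in contrast, was 11.30 and 11.10 untreated and 10.78 and 10.76 treated in the control clones, and 9.99 and 11.01 untreated and 10.68 and 10.62 treated in the TET1-KD clones. Its control response was -0.43 (SE 0.32, adjusted p = 0.32, limma). TET1-KD1 and TET1-KD2 went opposite ways, by 0.69 and -0.39. The probes have GC contents of 45% and 55%, and the bin with the highest GC content had median control responses of -0.52 and -0.55. With a robust GC trend removed from each clone's response and the clone as a block, the second probe's control response was -0.68 (adjusted p = 0.020, limma) and the difference 0.65 (adjusted p = 0.12, limma). The part of the slide in these values cannot be told apart from that of the drug.

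**Figure D3:**
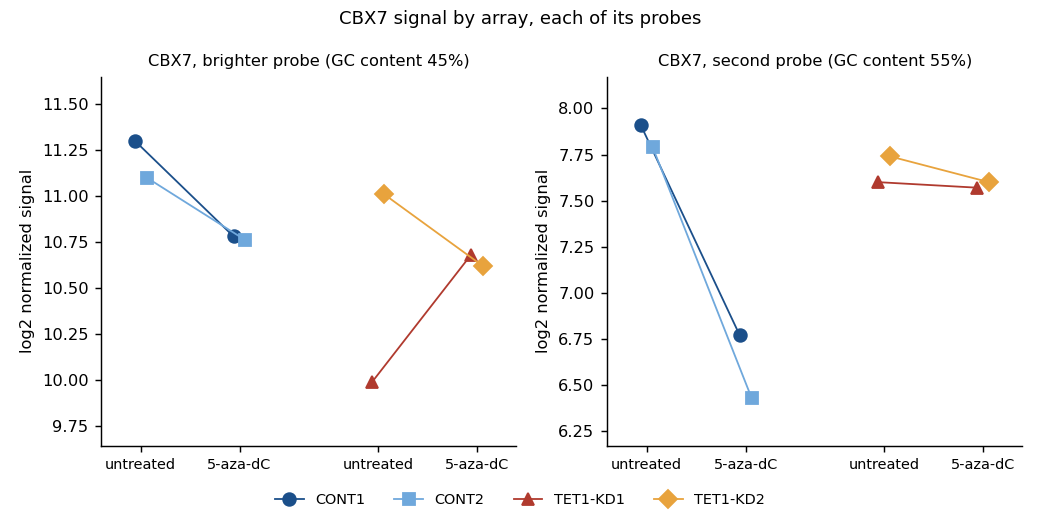
Normalized log2 signal (y axis, a span of 2 in both panels) of the brighter and the second *CBX7* probe on each array, with lines from the untreated to the treated array of a clone. On the second probe both treated control arrays, at 6.77 and 6.43, are below the other 6, while on the brighter probe the lowest array is untreated TET1-KD1 at 9.99.

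**Figure D4:**
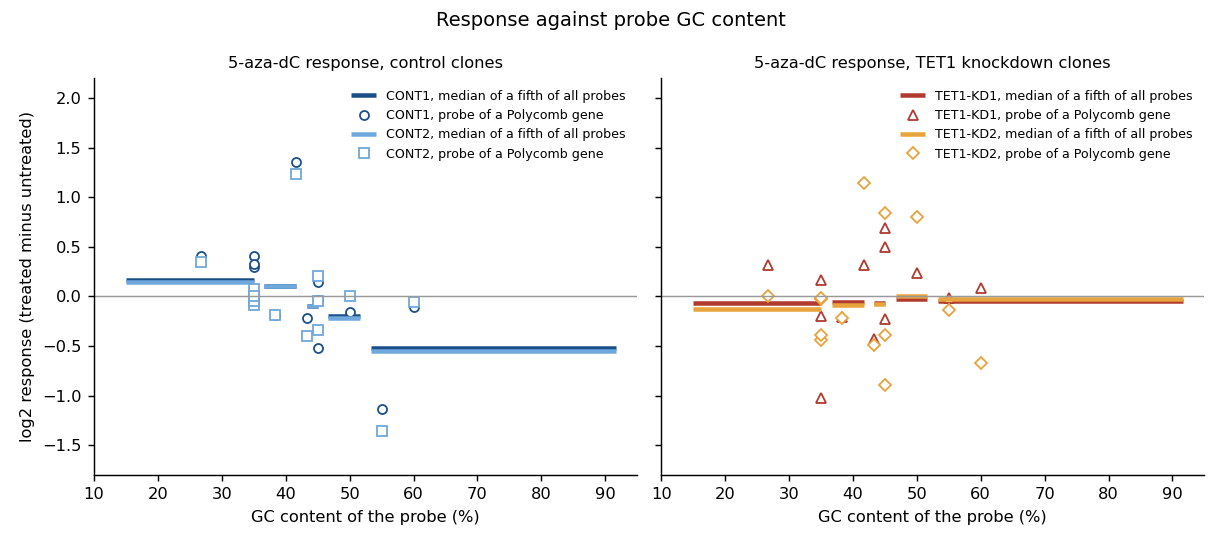
Response to 5-aza-dC of each clone (y axis, log2, treated minus untreated) against the GC content of the probe (x axis, %). Bars span the 5 bins of equal rank of all tested probes and sit at the bin's median response, and open symbols are the 14 probes of Polycomb genes. The bars of CONT1 and CONT2 go from 0.16 and 0.15 down to -0.52 and -0.55, and those of TET1-KD1 and TET1-KD2 stay near 0.

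For all 10 genes the difference in response between TET1-KD and control clones was not called on the brightest probe, while 5.27% of all gene names were. *CBX2* alone reached an unadjusted p below 0.05, as did 6742 of all 27287 tested probes. The difference was negative for 8 genes and positive for *CBX7* and *CBX8*, with a median of -0.19 beside 0.02 over all gene names. The intervals of 6 genes reached beyond a 2-fold difference in at least one direction, and those of the other 4 lay within it.

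The other genes of the pathway were counted from fixed lists. The share of all gene names called higher and lower was 20.5% and 21.3% in the control clones and 9.45% and 3.09% in the TET1-KD clones. No gene of these lists was called between untreated clones. Of 8 tested PRC2 partners, 1 rose and 1 fell in the control clones, and 0 passed in the TET1-KD clones. *EPOP*, which links PRC2 to elongin, rose by 1.41 (SE 0.34, adjusted p = 0.020, limma). *PHF19*, a Polycomb-like protein that reads methylated lysine 36 of histone H3, fell by 1.90 (SE 0.31, adjusted p = 0.0046, limma). The probes of *EPOP* and *PHF19* have GC contents of 35% and 55%. *PHF19* was 12.33 and 12.78 untreated and 10.59 and 10.73 treated in the control clones, so the groups were well apart, and 13.14 and 12.75 untreated and 12.30 and 11.53 treated in the TET1-KD clones. The *EPOP* call was lost without any 1 of the 4 control arrays (1.27 to 1.55), and that of *PHF19* was not lost in any of the 8 fits that left out 1 array.

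Of 24 tested PRC1 partners, 3 rose and 4 fell in the control clones. *SCML1* and *SCML2*, of the Scm-like family, rose by 1.85 and 1.01 (SE 0.27 and 0.30), and *FBRS*, related to the AUTS2 subunit, rose by 0.67 (SE 0.15). *PCGF2*, the closest paralog of *BMI1*, fell by 1.81 (SE 0.26), *SCMH1* by 1.36 (SE 0.22) and *L3MBTL2* by 0.97 (SE 0.19). The probes of *SCML1*, *SCML2* and *FBRS* have GC contents of 35%, 26.67% and 41.67%. Those of *PCGF2*, *SCMH1* and *L3MBTL2* have 45%, 55% and 55%. Over all probes, those with more GC had lower control responses, as given above. *SCML1* was also higher in untreated TET1-KD clones, at 7.98 and 7.50, than in untreated control clones, at 5.51 and 5.30, and was 7.58, 6.93, 7.87 and 7.99 after treatment. With the drug both control clones were higher, while TET1-KD1 was lower and TET1-KD2 higher than without it. Its untreated difference of 2.34 (SE 0.27) was not called (adjusted p = 0.15, limma). In the TET1-KD clones, 2 of the 24 fell, *SCMH1* by 1.02 (SE 0.22) and *CBX6*, another chromodomain subunit, by 0.70 (SE 0.16). Those calls were lost in 6 and in 8 of the 8 fits that left out 1 array, with responses from -1.23 to -0.81 and from -0.82 to -0.58, whereas the control calls of *SCML1*, *PCGF2* and *SCMH1* were lost in 0. Those of *SCML2* and *FBRS* were lost without any 1 of the 4 control arrays (0.89 to 1.12 and 0.65 to 0.69), and that of *L3MBTL2* without either untreated control array (-1.19 to -0.74 over the 8 fits).

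The PR-DUB complex removes the ubiquitin that PRC1 places. Of 9 tested genes of that list, *FOXK2* rose by 0.73 (SE 0.17), and *OGT*, *ASXL1* and *HCFC1* fell by 0.79, 0.77 and 0.64 (SE 0.21, 0.15 and 0.19) in the control clones, while 0 passed in the TET1-KD clones. Their probes, in that order, have GC contents of 45%, 35%, 45% and 38.33%. All 4 calls were lost without 1 or more of the control arrays, *ASXL1* only without untreated CONT2, and *HCFC1* also without either treated TET1-KD array, with responses of 0.66 to 0.81, -0.83 to -0.76, -0.83 to -0.71 and -0.73 to -0.55. Of 12 tested demethylases of lysine 27 and trithorax genes, the demethylases *KDM6B* and *KDM6A* rose by 0.91 and 0.79 (SE 0.21 and 0.15) in the control clones, and 0 passed in the TET1-KD clones. The *KDM6B* and *KDM6A* probes have GC contents of 25% and 35%. The *KDM6A* call was lost without untreated CONT1 (0.69 to 0.88 over the 8 fits), and the *KDM6B* call without either untreated control array or treated CONT1 (0.76 to 1.06).

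**Figure D5:**
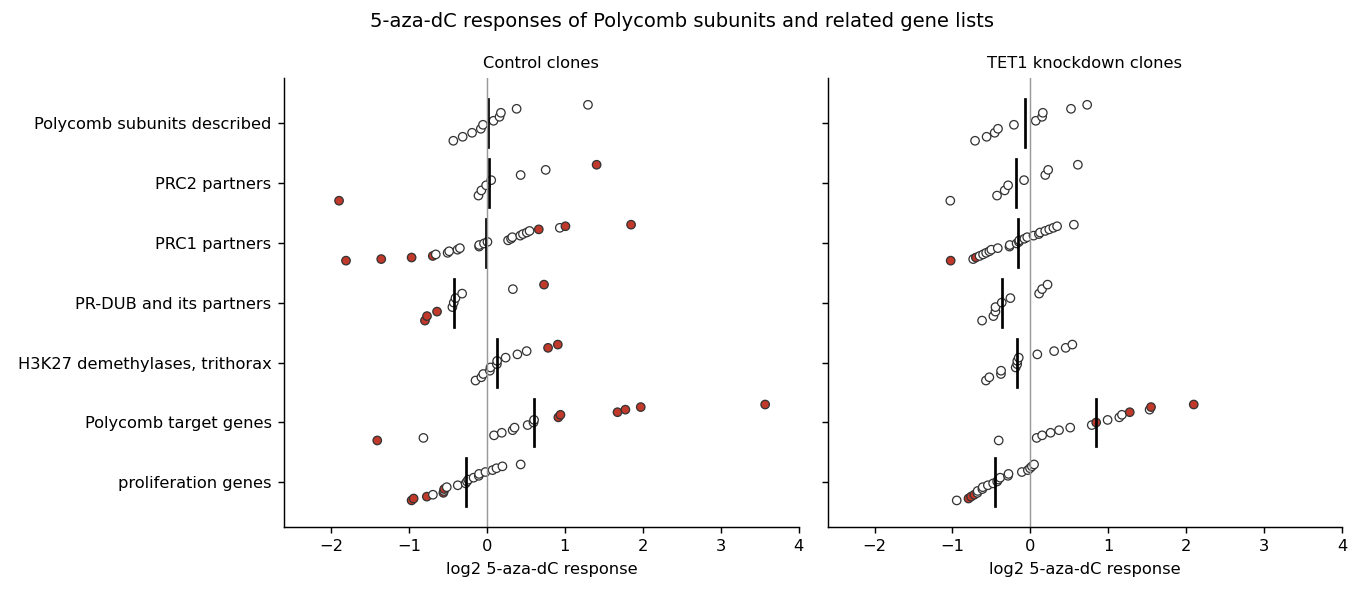
Response to 5-aza-dC (x axis, log2) of each tested gene in the 10 Polycomb subunits and 6 related lists, in control clones (left) and TET1-KD clones (right). Red points passed the limma test and the black bars are list medians. The subunits have no red point and medians of 0.02 and -0.07, and the tested Polycomb target genes have medians of 0.60 and 0.84. Genes bright only after treatment could enter a list, and genes dim throughout could not, so these medians depend in part on the filter.

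Of 22 textbook Polycomb target genes, which are developmental regulators and cell cycle inhibitors bound by the complexes in many cells, 15 were tested. The other 7 had no probe above background on both arrays of any condition. A gene bright only after treatment was tested, while one dim throughout was left out. The number of rises and the list medians therefore depend in part on this filter, which also applies to the shares of all gene names. In the control clones 6 rose and 1 fell, and in the TET1-KD clones 4 rose and 0 fell. *PAX6*, a homeobox regulator of eye and brain, was 7.21 and 7.33 untreated and 8.86 and 9.23 treated in CONT1 and CONT2, and 6.51 and 7.0 untreated and 8.83 and 8.88 treated in TET1-KD1 and TET1-KD2. All treated arrays were above all untreated ones, with responses of 1.78 and 2.10 (SE 0.22 each, adjusted p = 0.0018 and 0.0020, limma). The calls of *PAX6* were kept in all 8 fits that left out 1 array. *CDKN1C*, a cyclin-dependent kinase inhibitor, rose by 1.97 (SE 0.49) in the control clones, *PAX7* was at least 4.05-fold higher there (not well above background in either untreated control clone, adjusted p = 0.033, limma), and *MYT1* and *GATA6* rose by 1.27 and 0.84 (SE 0.30 and 0.20) in the TET1-KD clones. These calls were lost without any 1 of the 4 control arrays for *CDKN1C* (1.87 to 2.08) and *PAX7*, without any 1 of the 8 arrays for *MYT1* (0.97 to 1.58), and without any array but treated TET1-KD1 for *GATA6* (0.62 to 1.07). The *PAX7* call was also lost without either untreated TET1-KD array, with fitted responses of 2.84 to 4.30.

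*CDKN1A*, which encodes the cell cycle inhibitor p21, was the target gene that fell. It was 10.31 and 10.11 untreated and 8.76 and 8.84 treated in the control clones, and 10.11 and 10.20 untreated and 10.89 and 10.44 treated in the TET1-KD clones. The treated control arrays were below the other 6, with a response of -1.41 (SE 0.19, adjusted p = 0.0026, limma) and a difference between the kinds of clone of 1.92 (SE 0.27, adjusted p = 0.019, limma). It is the 1 gene of the lists whose difference was called, its probe has a GC content of 55%, and the difference was not called without CONT1 untreated, CONT2 untreated, TET1-KD1 untreated or CONT2 treated (1.82 to 2.02, adjusted p from 0.050 to 0.095, limma).

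Since *EZH2*, *EED* and *SUZ12* are transcribed more in dividing cells, 20 proliferation genes were set beside them. In the control clones 0 rose and 5 fell, with *PLK1*, *MCM7* and *MCM2* at -0.97, -0.94 and -0.77 (SE 0.14, 0.15 and 0.16), and in the TET1-KD clones 0 rose and 3 fell, with *E2F1*, *MCM2* and *MCM6* at -0.79, -0.76 and -0.72 (SE 0.15, 0.16 and 0.16). The median over the 20 was -0.26 and -0.45, beside -0.05 and -0.06 over all gene names. Between untreated TET1-KD and control clones 0 of the 20 were called, with a median of 0.22 beside 0.01 over all gene names. The 3 calls in the TET1-KD clones were each lost in at least 6 of the 8 fits that left out 1 array, with responses of -0.81 to -0.78 for *E2F1*, -0.88 to -0.64 for *MCM2* and -0.85 to -0.60 for *MCM6*. In the control clones *MCM2* was lost without either untreated control array or treated CONT2 (-0.82 to -0.72), and *PLK1* and *MCM7* in 0 fits. The part of cell division in the values of the PRC2 genes was not tested.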

How the data were processed

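The 4 HCT116 clones were each measured untreated and with 5-aza-dC on one-color arrays labelled from 100 ng of RNA. The authors deposited spot intensity values as Feature Extraction 10.7.3.1 wrote them, background-subtracted and not normalized between arrays. The deposited table of processed values held the same intensity values, with a largest difference of 0.497%. Each of the 58717 non-control spots was divided by its array's 75th percentile, 395.5 to 623.7, and multiplied by the geometric mean of these. Values below 1 were set to 1, log2 was taken, flagged spots were left out, and spots of a probe were averaged. A probe counted as above background where a share of 0.5 or more of its spots did so, and was tested when above on both arrays of a condition (27287 probes, 19688 gene names).

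Contrasts came from 1 limma 3.58.1 fit (R 4.3.3) over 8 arrays in 4 groups of 2 with 4 residual degrees of freedom, with Benjamini-Hochberg adjustment over all tested probes and a threshold of 0.05. The p-values rest on the spread between the 2 clones of a condition, pooled over the 4 conditions. Limma draws that spread towards the one of all tested probes. The main fit did not pair the treated and untreated arrays of a clone. The members and lists were chosen with earlier results of these data known. Named genes are all 10 members, *TET1*, and the 3 largest rises and falls of each list past the threshold. Values of 1 target gene that this rule names are not reported here. *GATA6* and the untreated values of *SCML1* were added after they were seen. Same-numbered arrays of a kind come from the same clone per the labels, and their deviations correlated at 0.20 in control and 0.48 in TET1-KD clones. The number of arrays limits the precision. The fit was tested on simulated data.

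Alternatives were a normexp correction of the background (offset 50), quantile normalization, the deposited table, other filters, an offset of 50, the 4 arrays of a contrast, a clone block, the block with a loess GC trend (span 0.5) removed, the methods' t-test, the mean of a gene's probes, and each array left out. A robust GC trend, a curve through the 8 brightest spike-ins and a fit on the 6 arrays of the first slide were added after seeing the data. Start regions came from RefSeq (GRCh38.p14). Figures used matplotlib 3.10.9.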

Additional observations from a re-analysis of the deposited data

Results flagged for a closer look

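The second probe of *CBX7* differed in its 5-aza-dC response between the kinds of clone by 1.17 on the log2 scale (TET1-KD minus control, SE 0.24, adjusted p = 0.048, limma interaction), with responses of -1.14 and -1.36 in CONT1 and CONT2 and of -0.02 and -0.14 in TET1-KD1 and TET1-KD2. The brighter *CBX7* probe gave a difference of 0.58 (SE 0.45, adjusted p = 0.48, limma). *CDKN1A*, from the list of Polycomb target genes, differed by 1.92 (SE 0.27, adjusted p = 0.019, limma interaction), and both of these probes have a GC content of 55%. Both treated control arrays are on the second slide, so neither difference can be told apart from a slide difference. Both calls were also lost without certain single arrays, as given above. Over the fits that left out 1 array, the differences ran from 0.997 to 1.337 for the second *CBX7* probe and from 1.694 to 2.138 for *CDKN1A*.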

How the results depend on the processing

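With 2 clones per condition, and with the slide and the control response bound together, values of single genes moved with the processing. The number of the 10 members called in the control clones, 0 as reported, was 1 with normexp correction, with an offset of 50, with only the 4 arrays of the contrast and with the replicate block, and 4 with the replicate block and the GC trend removed. It was 3 on the spike-in curve, 1 with the block and the robust GC trend, and 1 with the mean of a gene's probes (*CBX7*, -0.84), and leaving out 1 array gave 0 to 1. The 1 gene was *JARID2* in the other settings. Of all 27287 tested probes, 11402 were called in the control clones as reported, and 10534 with normexp correction. They were 11896 with the offset, 12599 with the 4 arrays and 13746 with the block. The block with the GC trend called 14283, that with the robust trend 13042, and the spike-in curve 13062. In the TET1-KD clones, 0 as reported became 4 with the block and the GC trend (*CBX2*, *EED*, *EZH2* and *SUZ12*), and leaving out 1 array gave 0 to 1. With the block and that GC trend, 8542 of all 27287 tested probes were called in the TET1-KD clones, 5773 of them lower. That GC trend also moved the median response of all probes from -0.07 to -0.30 in the TET1-KD clones and from -0.08 to -0.23 in the control clones. The robust one called 0 members in the TET1-KD clones. In the untreated comparison and the difference in response the count was 0 in every setting run. The block changed no other call of a member's brightest probe, and the untreated comparison was not blocked, because its clones differ. Quantile normalization moved the control median over all probes from -0.08 to -0.20, and the spike-in curve moved it to -0.34. The robust trend moved it to 0.06, and keeping dim probes to 0.27, with -0.19 in the TET1-KD clones. Of all probes called in the TET1-KD clones 75.5% were higher, but 32.4% with the block and the GC trend, so that there most were lower, and 51.4% with only probes above background on all arrays. The share was 64.3% with normexp, 62.1% with quantile normalization, 62.0% with the offset, 70.6% on the spike-in curve, 81.2% with the robust trend, 87.9% without a filter and 95.7% with only the 4 arrays. In the control clones it was 45.9%, from 30.5% on the spike-in curve to 56.0% with the robust trend, and for the difference 72.1%, from 52.2% with normexp to 86.0% on the spike-in curve. Signs turned only for values that had not been called, except *FBRS* and *KRT18*, which were -0.0024 and -0.17 in the control clones on the spike-in curve. With the block and the GC trend, the control responses of *RNF2*, *CBX2*, *BMI1* and *EZH1* became -0.18, -0.29, -0.28 and -0.021, the TET1-KD responses of *BMI1* and *CBX7* -0.15 and -0.10, and the differences of *RNF2*, *SUZ12* and *BMI1* 0.23, 0.12 and 0.12. With the robust trend *CBX8* became 0.25 in the control clones and those differences 0.23, 0.14 and 0.13. On the spike-in curve *CBX2* and *BMI1* became -0.40 and -0.068 in the control clones, and the differences of *SUZ12*, *BMI1*, *EZH2* and *EED* 0.38, 0.093, 0.079 and 0.40. The difference of *SUZ12* was 0.0074 with normexp and 0.13 with quantile normalization, where that of *EED* was 0.043. With the mean of probes *BMI1* was -0.020 in the TET1-KD clones, *CBX2* 0.19 between untreated clones, and the difference of *RNF2* 0.20. Leaving out 1 array, control responses ranged from -0.0095 to 0.33 for *CBX2*, -0.040 to 0.40 for *BMI1*, -0.16 to 0.065 for *EZH2*, -0.014 to 0.18 for *EZH1* and -0.33 to 0.18 for *CBX8*. TET1-KD responses ranged from -0.46 to 0.60 for *BMI1* and -0.36 to 0.66 for *CBX7*. Untreated differences ranged from -0.027 to 0.11 for *RNF2*, -0.28 to 0.062 for *CBX2*, -0.50 to 0.037 for *JARID2*, -0.64 to 0.070 for *EZH1* and -0.35 to 0.16 for *CBX8*, and differences in response from -1.21 to 0.074 for *JARID2*, -0.19 to 0.14 for *SUZ12* and -0.64 to 0.42 for *BMI1*. The number called in each list ranged, over all settings, from 1 to 4 for PRC2 partners, 3 to 11 for PRC1 partners, 0 to 6 for PR-DUB, 0 to 5 for demethylases and trithorax, 3 to 8 for target genes and 2 to 13 for proliferation genes in the control clones. In the TET1-KD clones the ranges were 0 to 2, 0 to 10, 0 to 4, 0 to 4, 0 to 5 and 0 to 14 in the same order. The calls among all 27287 tested probes varied as well. They were 4163 with the methods' t-test and 14283 with the block and the GC trend in the control clones. In the TET1-KD clones they were 0 and 8542 in these settings. The cause of these shifts was not tested.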
